A study of Homo sapiens with 6 samples.

Results

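Cytochrome c oxidase, complex IV of the respiratory chain, and the proteins that build it were examined in copper-adapted renal carcinoma cells. The set held the 40 nuclear genes named on a fixed list (14 subunits and 26 assembly factors) out of 25987 genes with a symbol, and all 40 were found in the count table by exact symbol. The cells were 786-O, an established line from a clear cell renal cell carcinoma that lacks functional VHL and therefore keeps hypoxia-inducible factor active. The labels give the genotype as wild type. In the copper group, cells grown in DMEM/F12 with serum had been adapted to medium whose serum was first bound to copper sulfate. A single concentration, 30 µM, is named for the series, although the label values go up from 30 to 31 and 32 µM over copper replicates 1, 2 and 3. All 3 were treated as one group. The controls received serum handled in the same way without copper, and both groups share the line, the medium and the library kit. The labels do not give the length of the adaptation, and the question the series poses is how copper bears on the metabolism of this cancer.

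Complex IV takes electrons from cytochrome c and passes them to oxygen, pumping protons as it does so. Its catalytic core is encoded by mitochondrial DNA (not analysed here) and carries heme a and copper in a pair of sites, one of which holds a binuclear copper centre. Nuclear subunits surround the core, and dedicated factors make the heme, hand over copper in the intermembrane space and hold the core subunits until they are assembled. Without copper, or without the factors that deliver it, the enzyme is not completed.

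There were 3 libraries per group, each one RNA sample, with library totals of 16301772 to 18189469 counts for copper and 19219090 to 25079913 for control. The labels do not say that samples of a group came from separate cultures. The p-values and intervals therefore rest on the spread between these samples, which may be technical. All 5 genes taken as markers of the line had counts. The renal lineage factors PAX8 and PAX2 were at 123 to 147 and 5.63 to 9.01 CPM (counts scaled to the size of the library). The cytoskeletal gene VIM was at 2763 to 3788 CPM, CDH2 at 341 to 472 CPM and KRT18 at 189 to 276 CPM. Of 5 markers of other cell types, the leukocyte gene PTPRC, the endothelial gene PECAM1 and the fibroblast gene DCN each had at most 4 counts in any library, the hepatocyte gene ALB had 4 to 10 and the epithelial gene EPCAM 16 to 30. On the first principal component of log2 CPM (57.9% of the variance) the 2 libraries numbered 3 stood apart, copper at 41.2 and control at 17.6, where the other 4 had scores of -17.6 to -11.7. For estimates that rest on copper replicate 3, the value without it is given too. That fit keeps control replicate 3, which stood apart in the same direction, so its groups are not matched by replicate number. For some genes the value in replicates 1 and 2 alone is given as well. Positions are those of the count table (build GRCh38, per the submitters' processing notes), and for 38 of the 40 genes the end lay within 1000 bases of that in RefSeq GRCh38.p14. The exceptions were COX7A2L and COA6.

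No complex IV gene passed the test between copper and control. Of the 40 genes, 37 passed the filter on low counts, and 0 of these 37 had an adjusted p under 0.05 by edgeR's quasi-likelihood test, where the share of all 12944 tested genes called was 0.0%. At an unadjusted p under 0.05 there were also 0 of 37, against 3.52% of all genes, and DESeq2 called 0 of 39 (0.166% of the 16222 genes to which it gave an adjusted p). With the replicate number as a block, 0 of 37 were called (0.17% of all genes, 22 genes) and 1, COA6, had an unadjusted p under 0.05 (8.41% of all genes). Estimated log2 fold changes ran from -0.36 for COX20 to 0.31 for PET117, with a median of 0.11 against 0.0052 for all genes. The estimate was above 0 for 33 of the 37, against 51.4% of all genes, but 0 of the 37 had a 95% interval that excluded 0. In the blocked fit 1 did, that of COA6 (0.083 to 0.48, unadjusted for the number of genes).

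The intervals bound the size of the differences only as far as the spread between these samples goes, which may be technical. For 36 of 37 genes the 95% interval of the difference, unadjusted for the number of genes, lay within a 2-fold change in either direction, and for 31 within 1.5-fold. It lay within 1.3-fold for 13 of them without the block and for 24 with it, where 36 and 33 lay within 2-fold and 1.5-fold. The median distance from the estimate to either end of its interval was 0.28 on the log2 scale, or 0.22 with the block. The exception at 2-fold without the block was COX20, which had 12 to 29 counts per library.

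**Figure D1:**
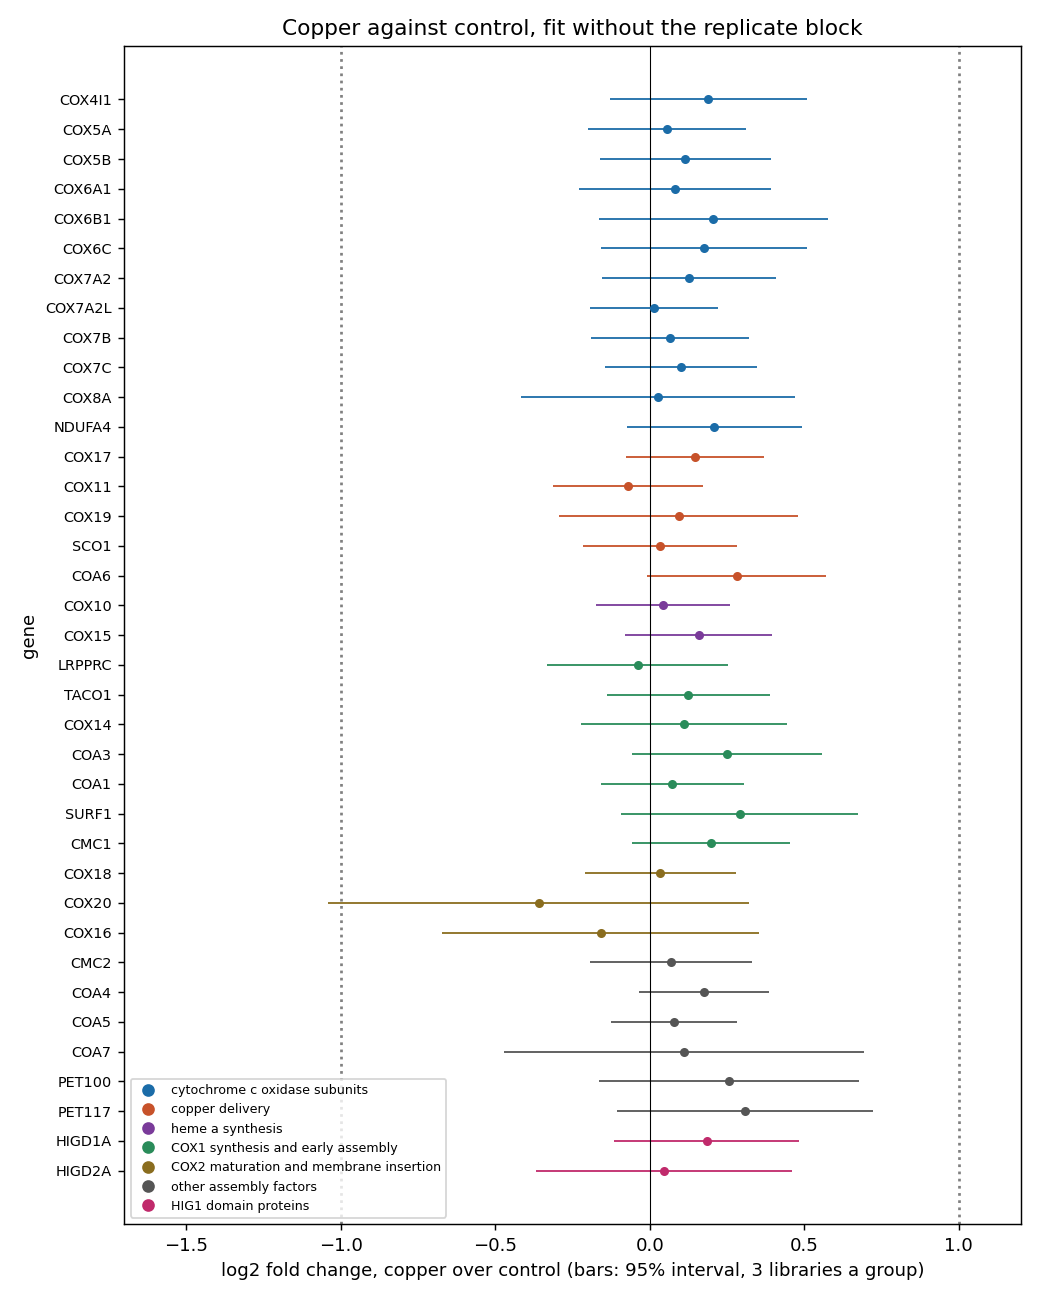
Log2 fold change of copper over control (x axis) for the 37 tested complex IV genes (y axis), coloured by role group, with 95% intervals from the edgeR fit over 3 libraries a group. Dotted lines mark 2-fold changes, and every interval includes 0.

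Groups did not overlap for 5 of 37 genes, all 5 higher in copper (COA6, COX10, CMC1, COA4 and PET117), against 10.8% of all genes, of which 5.45% higher and 5.35% lower. Compared within replicate numbers, 14 of 37 genes were higher in copper in all 3 pairs and 0 were lower in all 3, against 17.7% and 17.0% of all genes. The 5 genes without overlap were 13.5% of the set, near the 10.8% of all genes in either direction and above the 5.45% higher in copper. These shares were not tested against each other. By the counts above 0 and within pairs, the estimates of the set leaned upward by a small amount. The size of that lean differed between libraries. The median over the 37 genes was 0.034, 0.062 and 0.24 in replicates 1, 2 and 3, with 27, 25 and 30 of 37 higher in copper against 50.5%, 51.5% and 50.2% of all genes. In replicates 1 and 2 alone the fitted median was 0.047, and 0 of 37 were called (0.856% of all genes). Without copper replicate 3 the median was 0.029, with 24 of 37 above 0. In bulk RNA, a higher level in every cell and a larger share of cells with a high level cannot be told apart.

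Upstream sequences are shown for genes that carry the binding core of a factor known to drive the respiratory chain. Nuclear genes of the respiratory chain are textbook targets of GABPA, an ETS factor also called nuclear respiratory factor 2, and of NRF1. RefSeq (GRCh38.p14) gave a start site for 35 of the 40 genes, taking the start nearest to that of the count table where several were listed. The genes COX4I2, COX6C, COX7A1, COX11 and SCO2 were without one. In the 250 bases before the start, on either strand, the ETS core CCGGAAG occurred in 12 of 35 (34.3%), against 16.4% of the promoters of tested genes and 8.82% of all 27305 promoters. Shown are the subunit, copper delivery and heme a genes among these 12. Each sequence is the 60 bases before the start, read 5′ to 3′ along the gene, and capitals mark that core, written CTTCCGG where it lies on the opposite strand.
COX5B (chr2:97646002-97646061, plus strand): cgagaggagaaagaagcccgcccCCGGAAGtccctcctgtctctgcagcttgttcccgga
COX6A1 (chr12:120438053-120438112, plus strand): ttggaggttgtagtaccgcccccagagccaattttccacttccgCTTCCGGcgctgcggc
COX6B1 (chr19:35648263-35648322, plus strand): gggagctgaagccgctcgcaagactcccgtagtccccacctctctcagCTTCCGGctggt
COX8A (chr11:63974560-63974619, plus strand): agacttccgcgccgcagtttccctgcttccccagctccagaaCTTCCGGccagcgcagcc
SCO1 (chr17:10697534-10697593, minus strand): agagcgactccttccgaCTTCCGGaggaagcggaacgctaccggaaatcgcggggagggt
COX10 (chr17:14069444-14069503, plus strand): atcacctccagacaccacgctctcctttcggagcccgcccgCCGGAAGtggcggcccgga
COX15 (chr10:99732128-99732187, minus strand): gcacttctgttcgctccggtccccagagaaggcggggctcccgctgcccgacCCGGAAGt

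The palindrome bound by NRF1, with any base allowed at one central position, was found in 4 of 35 (COX17, CMC1, COX18 and CMC2; 11.4%, against 10.5% for tested genes). It occurred at 2 places in the 130 bases before the start of the copper chaperone gene COX17, with capitals marking both.
COX17 (chr3:119677407-119677536, minus strand): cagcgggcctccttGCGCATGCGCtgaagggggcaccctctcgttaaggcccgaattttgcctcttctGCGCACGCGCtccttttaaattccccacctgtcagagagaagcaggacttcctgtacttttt
The metal response element bound by MTF1, searched as TGCACNC or TGCGCNC, matched 14 of 35 (40%, against 32.8%); TGCGCNC can overlap the NRF1 palindrome, as it does in COX17. The YY1 core ATGGCGGC matched 1 (2.86%, against 1.97%) and the antioxidant response element core TGACNNNGC matched 3 (8.57%, against 12%). The median log2 fold change in copper was 0.080 for the 12 genes with the ETS core and 0.11 for the 23 without, and 0.11 for both the 14 with and the 21 without a metal response element match. These matches are letters in a window and were not tested for binding.

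Of the 14 nuclear subunits, 12 were tested, and all 12 estimates were above 0 by at most 0.21 (median 0.11) with 0 called. One library stood above the rest. Copper replicate 3 was the highest of the 6 libraries for 12 of 12 subunits, against 33.2% of all genes, while control replicate 2 was the lowest for 8, against 13.2% of all genes. Without copper replicate 3 the median of the subunits was -0.0017, with 6 of 12 above 0, and in replicates 1 and 2 alone it was 0.0019. COX4I1 (Entrez 1327; chromosome 16, 85799695 to 85807054, plus strand), the subunit through which ATP inhibits the enzyme, was at 266, 247 and 346 CPM in copper replicates 1, 2 and 3 and 256, 241 and 256 CPM in the controls. Copper replicates 1 and 2 lay beside or among the controls and replicate 3 far above them. Its log2 fold change was 0.19 (SE 0.14, adjusted p 1.00, 95% interval -0.13 to 0.51).

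COX6B1 (Entrez 1340; chromosome 19, 35648323 to 35658782, plus strand), which lies on the intermembrane side of the enzyme, was at 84.4, 80.4 and 118 CPM in copper replicates 1, 2 and 3 and 88.0, 74.6 and 82.2 CPM in the controls. This was the largest difference of a subunit in replicate 3, 0.52 on the log2 scale, beside -0.061 and 0.11 in replicates 1 and 2. NDUFA4 (Entrez 4697; chromosome 7, 10931943 to 10940153, minus strand), once counted to complex I and listed by RefSeq as COXFA4, was at 148, 129 and 167 CPM in copper replicates 1, 2 and 3 and 138, 118 and 128 CPM in the controls. Its copper libraries were each higher than the control of the same number (0.11, 0.13 and 0.38), but the groups overlapped. Its log2 fold change was 0.21 (SE 0.12, adjusted p 1.00), the largest estimate among the subunits.

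COX8A (Entrez 1351; chromosome 11, 63974620 to 63976543, plus strand), whose transcript was the shortest of the tested subunits, ran in opposite directions between libraries. It was at 84.0, 84.5 and 133 CPM in copper replicates 1, 2 and 3 and 95.8, 90.7 and 109 CPM in the controls. Copper replicates 1 and 2 were the lowest of the 6 libraries and copper replicate 3 the highest, and its log2 fold change was 0.026 (SE 0.19, 95% interval -0.42 to 0.47). COX5B (Entrez 1329; chromosome 2, 97646062 to 97648383, plus strand), a zinc-binding subunit, was at 133, 122 and 162 CPM in copper replicates 1, 2 and 3 and 131, 125 and 129 CPM in the controls. COX5A (Entrez 9377; chromosome 15, 74919791 to 74938073, minus strand), a subunit on the matrix side, was at 77.0, 70.6 and 88.0 CPM in copper replicates 1, 2 and 3 and 79.8, 72.3 and 74.6 CPM in the controls. In both, copper replicate 2 was the lowest of the 6 libraries and copper replicate 3 the highest. COX7A2L, which helps join complex IV to complex III in supercomplexes, had the smallest estimate, 0.014 (SE 0.089). Those of COX6A1, COX6C, COX7A2, COX7B and COX7C were 0.081, 0.18, 0.13, 0.066 and 0.10.

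Every subunit estimate was smaller, or under 0, without copper replicate 3. That of COX4I1 was then 0.029, that of COX6B1 0.012 and that of NDUFA4 0.11. COX6C, COX7A2 and COX7C were at 0.014, 0.0046 and 0.0073, while COX5A, COX5B, COX6A1, COX7A2L and COX7B were at -0.035, -0.0080, -0.060, -0.030 and -0.019 and COX8A at -0.23.

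The 2 tissue-specific isoforms among the subunits had few or no counts. COX4I2, the lung isoform of COX4 that is induced by low oxygen, had 0 counts in all 6 libraries, which allows up to 0.121 to 0.183 CPM (3 counts per library, counting error only). COX7A1, the heart and muscle isoform, had 1, 2 and 5 counts in copper replicates 1, 2 and 3 and 2, 3 and 2 in the controls. Of the further isoforms COX6A2, COX6B2, COX7B2 and COX8C, none passed the filter, with at most 13 counts in a library (COX6B2, copper replicate 3). NDUFA4L2, the hypoxia-induced relative of NDUFA4, had 14 to 28 counts per library and a log2 fold change of -0.063 (SE 0.28, adjusted p 1.00).

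Divided by transcript length (RPKM, the CPM per kilobase of the longest GENCODE 29 principal transcript), the subunits were not equal. In control the highest was COX4I1 at 287 ± 10.1, followed by COX8A at 195 ± 18.9 and COX5B at 180 ± 4.23 (SD, n = 3), and the ranges of COX8A and COX5B overlapped. COX6C at 150 ± 12.4 came next, then COX6B1 at 122 ± 10.1 and COX7A2 at 122 ± 5.48, which did not differ beyond their spread. The lowest of the tested subunits were COX7A2L at 42.8 ± 0.448 and COX7B at 39.2 ± 2.37. Assembly factors lay below most subunits, from 53.2 ± 3.34 for HIGD2A to 0.441 ± 0.124 for COX20. These values depend on the transcript taken for each gene. For COX7A2L and COX7B it was 3056 and 2471 bases long. Before the division COX6A1 was lower than both, at 47.4 CPM in control against 131 and 96.8 CPM.

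**Figure D2:**
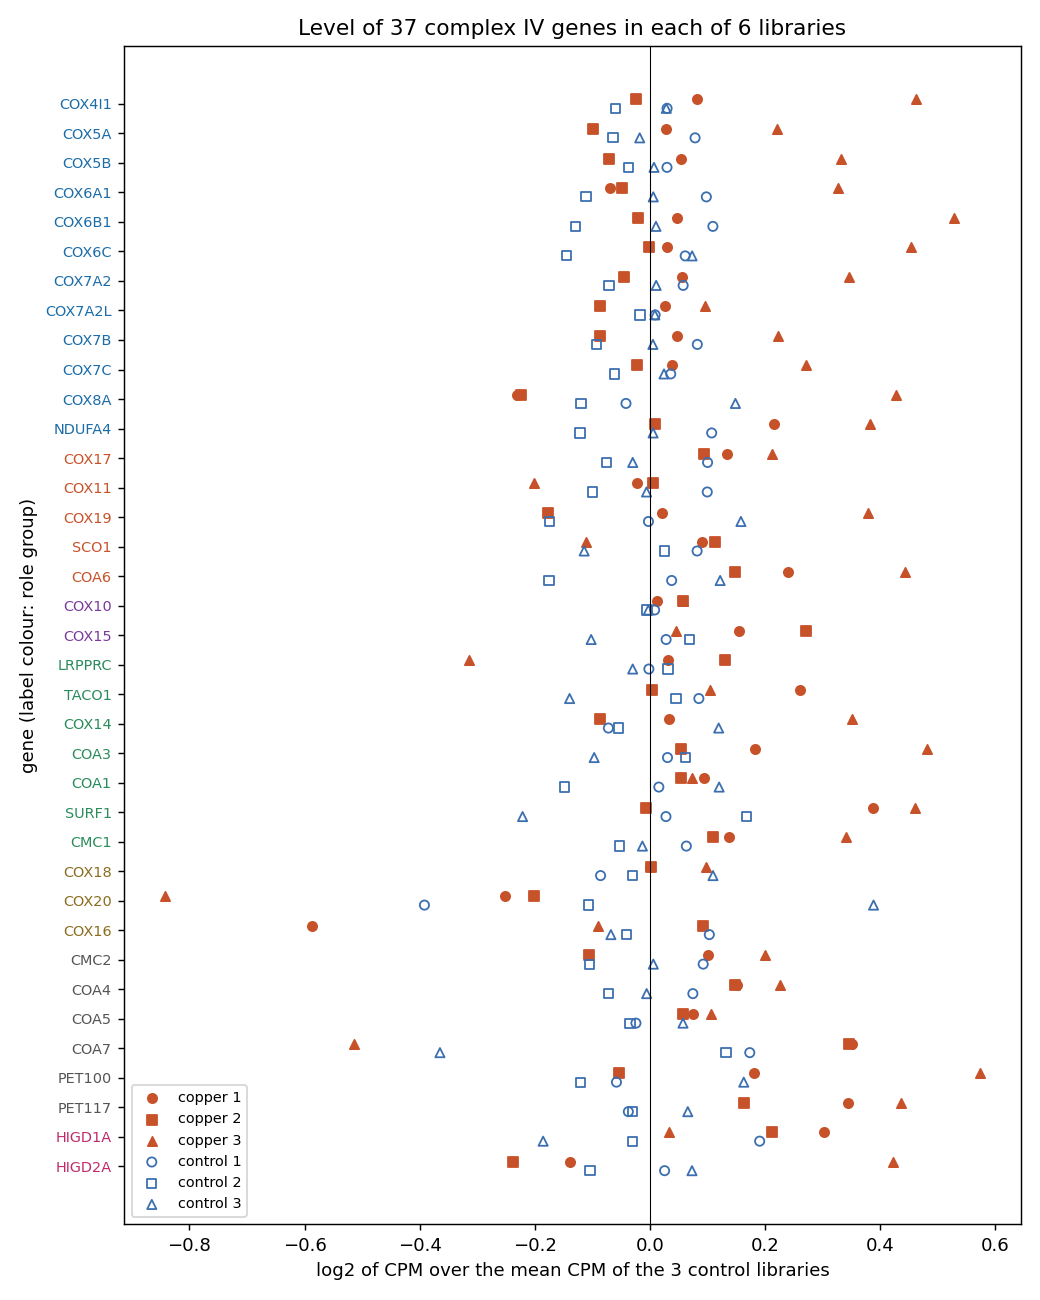
Level of each of the 37 tested genes (y axis, label colour by role group) in each library, as log2 of CPM over the mean of the 3 control libraries (x axis). Filled symbols are copper and open symbols control, with circles, squares and triangles for replicates 1, 2 and 3. The filled triangle of copper replicate 3 is the rightmost symbol for 26 of 37 genes, including all 12 subunits, and the leftmost for 4.

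Genes of copper delivery were close to control, with 0 of 5 called, 4 of 5 estimates above 0 and a median of 0.094. With 1 library left out that median ran from 0.046 without control replicate 2 to 0.17 without copper replicate 2. COX17 (Entrez 10063; chromosome 3, 119669532 to 119677406, minus strand) encodes the soluble chaperone that brings copper to SCO1, SCO2 and COX11. It was at 39.9, 38.8 and 42.1 CPM in copper replicates 1, 2 and 3 and 38.9, 34.5 and 35.6 CPM in the controls. The lowest copper library lay just under the highest control, so the groups overlapped, and the log2 fold change was 0.15 (SE 0.096, 95% interval -0.077 to 0.37). SCO1 (Entrez 6341; chromosome 17, 10672474 to 10697533, minus strand), which loads the binuclear copper site, was at 40.5, 41.1 and 35.2 CPM in copper replicates 1, 2 and 3 and 40.2, 38.7 and 35.1 CPM in the controls. Its log2 fold change was 0.034 (SE 0.11, 95% interval -0.22 to 0.28). COX11 (Entrez 1353; chromosome 17, 54961206 to 54968785, minus strand), which delivers copper to the site shared with heme, was at 45.5, 46.4 and 40.2 CPM in copper replicates 1, 2 and 3 and 49.6, 43.1 and 46.1 CPM in the controls. It was the one gene of copper delivery with an estimate under 0 (-0.070, SE 0.10), and copper replicate 3 was its lowest library. Without that library COX11 was at -0.0094 and SCO1 at 0.10. On the other strand it overlaps TOM1L1 and STXBP4, and COX15, COA1, CMC1, CMC2 and PET100 likewise overlap a gene there. Whether strand was used in counting is not stated, so reads of such pairs cannot be told apart.

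COA6 (Entrez 388753; chromosome 1, 234373701 to 234384049, plus strand) encodes a thiol reductase that works with the SCO proteins at the binuclear site. It was at 32.3, 30.3 and 37.2 CPM in copper replicates 1, 2 and 3 and 28.1, 24.2 and 29.8 CPM in the controls, or 33.3 ± 3.54 CPM in copper and 27.4 ± 2.84 CPM in control (SD, n = 3). The groups did not overlap, and the pairs differed by 0.20, 0.32 and 0.32, so the shift did not rest on replicate 3 alone. Without copper replicate 3 the estimate of COA6 was 0.19. Its log2 fold change of 0.28 (SE 0.12, a 1.22-fold level, 95% interval -0.0088 to 0.57) had the smallest p of the set, 0.056 by edgeR before adjustment, and an adjusted p of 1.00 (0.451 with the replicate block). COA6 was called under 1 alternative, the block in replicates 1 and 2 alone, with a log2 fold change of 0.26 and an adjusted p of 0.037. That fit called 7.03% of all genes, and COA6 was the 1 gene of 37 among them. The end of COA6 in the count table lay more than 1000 bases from that in RefSeq. COX19, a partner of COX11, was at 19.9, 17.3 and 25.5 CPM in copper replicates 1, 2 and 3 and 19.5, 17.4 and 21.8 CPM in the controls, with overlapping groups. Its log2 fold change of 0.094 (SE 0.17) was -0.075 without copper replicate 3 and 0.0055 in replicates 1 and 2 alone. In the deposited coordinates it shares its strand with KEL, which had 11 to 31 counts per library.

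SCO2, the paralogue of SCO1 that acts at the same site, had 4, 1 and 3 counts in copper and 2, 3 and 3 in control and was not tested. The gene lies within a region shared with TYMP on its own strand (187 to 331 counts per library) and NCAPH2 on the other (1277 to 2344). How reads that fit more than one gene were counted is not stated, so its count cannot be read as its level.

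Neither of the 2 enzymes that make heme a from heme passed the test (median 0.10). COX10 (Entrez 1352; chromosome 17, 14069504 to 14208677, plus strand), the farnesyltransferase of the first step, was at 20.5, 21.1 and 21.2 CPM in copper replicates 1, 2 and 3 and 20.4, 20.2 and 20.3 CPM in the controls. The groups did not overlap, but the gap between them was smaller than the SD of the controls, and the log2 fold change was 0.042 (SE 0.093). COX15 (Entrez 1355; chromosome 10, 99710868 to 99732127, minus strand), needed for the second step, was at 49.0, 53.1 and 45.4 CPM in copper replicates 1, 2 and 3 and 44.8, 46.1 and 41.0 CPM in the controls. It was higher in copper in each pair (0.13, 0.20 and 0.15), with overlap between groups and a log2 fold change of 0.16 (SE 0.10, adjusted p 1.00).

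Factors for synthesis and early assembly of the first core subunit had a median of 0.13, with 6 of 7 estimates above 0 and 0 called. LRPPRC (Entrez 10128; chromosome 2, 43886224 to 43995989, minus strand), which stabilises mitochondrial messenger RNAs, was at 225, 241 and 177 CPM in copper replicates 1, 2 and 3 and 220, 225 and 215 CPM in the controls. Copper replicate 3 was the lowest library and copper replicate 2 the highest, giving a log2 fold change of -0.039 (SE 0.13), or 0.081 without copper replicate 3. SURF1 (Entrez 6834; chromosome 9, 133351805 to 133356485, minus strand), an assembly factor mutated in Leigh syndrome, was at 18.2, 13.9 and 19.2 CPM in copper replicates 1, 2 and 3 and 14.2, 15.6 and 11.9 CPM in the controls. Its pairs differed by 0.36, -0.17 and 0.68, so replicate 2 went the other way from replicates 1 and 3. The estimate was 0.29 (SE 0.16, adjusted p 1.00), or 0.20 without copper replicate 3.

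COA3 (Entrez 28958; chromosome 17, 42797625 to 42798704, minus strand), which stabilises the newly made core subunit together with COX14, was at 27.7, 25.3 and 34.0 CPM in copper replicates 1, 2 and 3 and 24.9, 25.4 and 22.8 CPM in the controls, with a log2 fold change of 0.25 (SE 0.13). The lowest copper library lay between the controls. CMC1, a twin CX9C protein that binds the same intermediate, was at 20.2, 19.9 and 23.3 CPM in copper replicates 1, 2 and 3 and 19.2, 17.7 and 18.2 CPM in the controls. Its groups did not overlap, and the log2 fold change was 0.20 (SE 0.11, adjusted p 1.00). The estimates of COX14, COA1 and the translational activator TACO1 were 0.11, 0.074 and 0.13. Without copper replicate 3, COA3 was at 0.12, CMC1 at 0.12 and COX14 at -0.026. In replicates 1 and 2 alone COX14 was at 0.036.

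Among the 3 factors that insert the second core subunit and prepare it for copper, COX18, its membrane insertase, was steady across libraries at 19.4, 19.4 and 20.7 CPM in copper replicates 1, 2 and 3 and 18.3, 19.0 and 20.9 CPM in the controls (log2 fold change 0.034, SE 0.11, or 0.0023 without copper replicate 3). The other 2 had low counts. COX20, its chaperone, had 12 to 29 counts per library and COX16, which takes part in loading it with metal, had 27 to 66. Their log2 fold changes were -0.36 (SE 0.29) and -0.16 (SE 0.22), the lowest estimates of the set. COX20 had pair differences of 0.13, -0.087 and -1.11, so the difference lay mostly in replicate 3. Its estimate was -0.19 without copper replicate 3, -0.15 without control replicate 3 and 0.024 in replicates 1 and 2 alone. COX16 differed by -0.66, 0.13 and -0.022, mostly in replicate 1. COX16 lies within a readthrough gene on its own strand, SYNJ2BP-COX16, which had 0 to 2 counts. How reads that fit both genes were counted is not stated, so the count of COX16 cannot be read as its level.

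Of the 6 other assembly factors all estimates were above 0 (median 0.14) and 0 were called. PET117 (Entrez 100303755; chromosome 20, 18137863 to 18143168, plus strand), named after a yeast gene without which cells cannot respire, was at 2.99, 2.64 and 3.18 CPM in copper replicates 1, 2 and 3 and 2.29, 2.30 and 2.46 CPM in the controls. The groups did not overlap after scaling to library size, the counts before scaling being 47 to 59 for copper and 47 to 57 for control, and the log2 fold change of 0.31 (SE 0.18, adjusted p 1.00) was the largest of the set. It shares its strand and part of its span with KAT14, and how shared reads were counted is not stated. COA4 (Entrez 51287; chromosome 11, 73872668 to 73876846, minus strand), a twin CX9C protein of the intermembrane space, was at 56.7, 56.5 and 59.7 CPM in copper replicates 1, 2 and 3 and 53.7, 48.5 and 50.8 CPM in the controls. Its groups did not overlap, and the log2 fold change was 0.18 (SE 0.090, 95% interval -0.035 to 0.39).

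COA7 (Entrez 65260; chromosome 1, 52684449 to 52698347, minus strand), an assembly factor with Sel1-like repeats, varied with the replicate number. It was at 36.6, 36.5 and 20.1 CPM in copper replicates 1, 2 and 3 and 32.3, 31.4 and 22.3 CPM in the controls. Both replicate 3 libraries were low, whatever the treatment, and copper replicates 1 and 2 were the highest. COA7 was the 1 gene of 37 that differed among replicate numbers (adjusted p 0.0305 by edgeR), a test that called 6.46% of all genes. Between copper and control its estimate was 0.11 (SE 0.25), or 0.34 without copper replicate 3 and 0.19 in replicates 1 and 2 alone. PET100, COA5 and CMC2 had estimates of 0.26, 0.079 and 0.070, which were 0.068, 0.066 and -0.00051 without copper replicate 3. In replicates 1 and 2 alone PET100 was at 0.15.

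The HIG1 domain proteins, both with 0 calls, followed different patterns over the libraries. HIGD1A (Entrez 25994; chromosome 3, 42782908 to 42804442, minus strand), a hypoxia-induced regulator that binds complex IV, was at 50.8, 47.8 and 42.2 CPM in copper replicates 1, 2 and 3 and 47.1, 40.4 and 36.3 CPM in the controls. Each copper library was higher than the control of its number (0.11, 0.24 and 0.22), with overlap between groups and a log2 fold change of 0.19 (SE 0.13, adjusted p 1.00). HIGD2A (Entrez 192286; chromosome 5, 176388751 to 176389761, plus strand), an assembly factor for the complex, was at 32.3, 30.2 and 47.6 CPM in copper replicates 1, 2 and 3 and 36.2, 33.1 and 37.4 CPM in the controls. There, copper replicates 1 and 2 were the lowest libraries and copper replicate 3 the highest, as for COX8A. Its log2 fold change of 0.046 (SE 0.18) was -0.19 without the latter.

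The upward lean of the set in replicate 3 moved with transcript length. In replicate 3 all 12 subunits were higher in copper, by 0.088 to 0.52, while 5 and 8 of 12 were higher in replicates 1 and 2. The assembly factors did not share this contrast in counts. Of 25, 22, 17 and 18 were higher in replicates 1, 2 and 3, with medians of 0.086, 0.091 and 0.22. Subunit transcripts are short, with a median of 1006 bases against 1754 for the tested assembly factors and 3044 for all genes. Among all genes of up to 1000 bases the median difference in replicate 3 was 0.25 and 74.2% were higher, and the 12 complex IV genes of that length had a median of 0.33. From 1000 to 2000 bases the median of all was 0.18 and that of the 10 complex IV genes 0.24, and from 2000 to 4000 bases 0.033 and 0.088 (9 genes). For genes over 4000 bases the median of all was -0.21 and that of the 6 complex IV genes -0.0049. In replicate 3 the complex IV median was thus above that of all genes at each length. The lengths depend on the transcript taken for each gene, and the 6 genes over 4000 bases include CMC1 and CMC2, at 6033 and 10301 bases. In replicates 1 and 2 the medians of all genes differed little between these lengths, from -0.013 to 0.040. Those of the complex IV genes ran from 0.024 to 0.11. Up to 1000 bases, complex IV and all genes had medians of 0.030 and 0.027 in replicate 1 and 0.030 and 0.040 in replicate 2.

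Across the 37 genes, log length and the difference in replicate 3 had a Pearson r of -0.48 and a Spearman rho of -0.67, against -0.40 and -0.47 across 12882 genes with a length. In replicates 1 and 2 Pearson's r over the 37 was 0.043 and 0.12. These are correlations across genes of the same pair of libraries, and genes are not independent replicates. With the replicate block, the median of the 37 was 0.096 and that of the subunits 0.10. After the trend of each library over length and GC content was also removed, they were 0.087 and 0.061, and 0 of 37 were called (1.44% of all genes; smallest adjusted p of the 37 0.139). The part of transcript length in these differences was not tested beyond that correction.

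**Figure D3:**
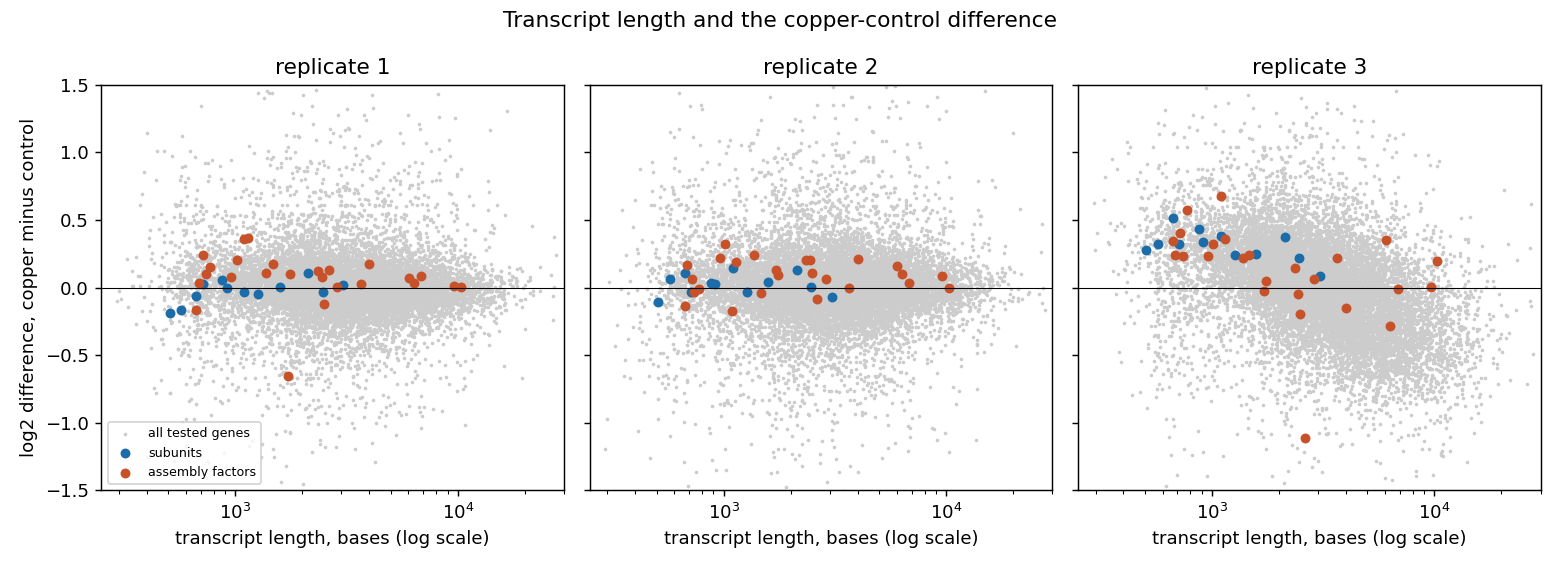
Log2 difference of copper minus control (y axis) against transcript length on a log axis (x axis), 1 panel per replicate number. Grey points are tested genes, blue points the 12 subunits and orange points the 25 assembly factors; 57, 56 and 65 genes fall outside the axes in replicates 1, 2 and 3. In replicate 3 the cloud slopes down from short to long transcripts and the subunits lie on its high side at short lengths.

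By role group, medians in replicates 1, 2 and 3 were -0.017, 0.030 and 0.32 for the subunits, 0.024, 0.11 and 0.22 for copper delivery and 0.065, 0.13 and 0.10 for heme a synthesis. They were 0.10, -0.0085 and 0.24 for synthesis and early assembly of the first core subunit, 0.086, 0.032 and -0.022 for insertion of the second, 0.14, 0.14 and 0.21 for the other assembly factors and -0.026, 0.054 and 0.28 for the HIG1 domain pair. The other assembly factors and the heme a pair had medians above 0 in each replicate, as did copper delivery, and each has few genes, 0 of them called. With 1 library left out, the fitted median ran from -0.0017 without copper replicate 3 to 0.18 without copper replicate 2 for the subunits, from 0.063 without copper replicate 2 to 0.12 without copper replicate 3 for heme a synthesis, from 0.12 without copper replicate 3 to 0.20 without copper replicate 2 for the first core subunit and from 0.033 without copper replicate 3 to 0.17 without control replicate 1 for the HIG1 domain pair.

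**Figure D4:**
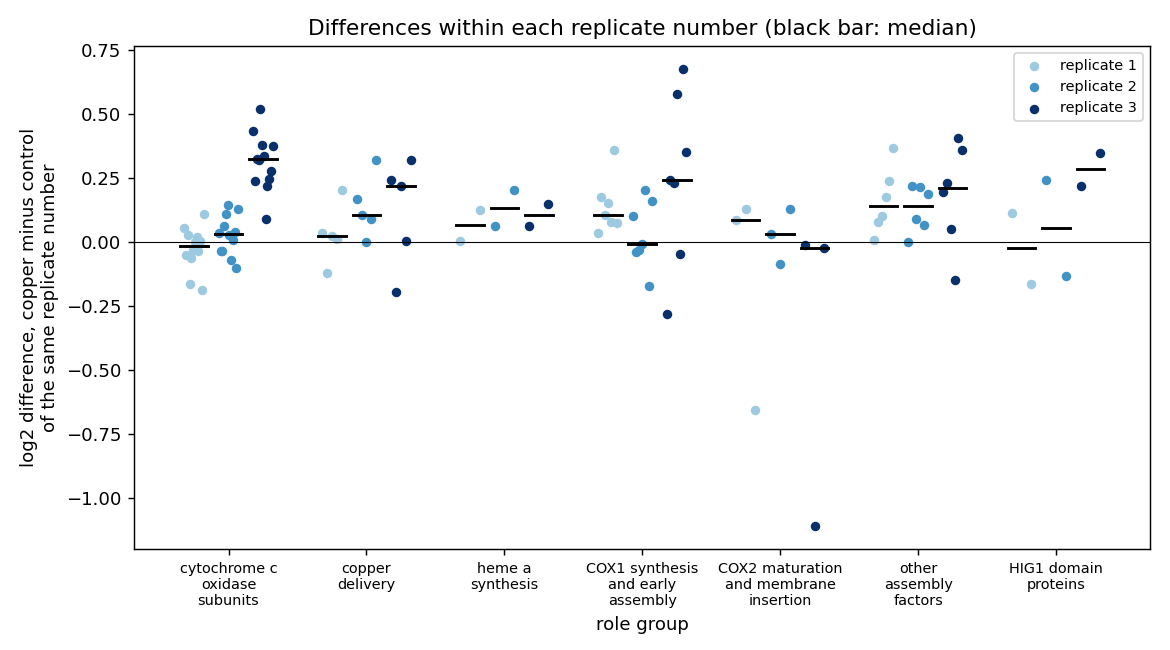
Log2 difference of copper minus control within each replicate number (y axis) for the tested genes of each role group (x axis), where COX1 and COX2 stand for the first and second core subunit. Points are genes, shades are replicates 1, 2 and 3 and black bars are medians, and the subunits' bar rises from near 0 in replicates 1 and 2 to 0.32 in replicate 3.

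A wider list of 15 genes that serve complex IV likewise held no called gene. It held the mitochondrial copper and phosphate carrier SLC25A3, the import oxidoreductases CHCHD4 and GFER, the electron donor CYCS and others, and 13 were tested with 0 called without and with the block. The median was 0.11 with 11 of 13 above 0, and the medians in replicates 1, 2 and 3 were 0.025, 0.065 and 0.21. The smallest p-values were those of SMIM20, a small membrane protein of the early assembly intermediate (0.23, SE 0.11), and GFER (0.22, SE 0.14), both with an adjusted p of 1.00 by edgeR. SLC25A3 was at 0.065 (SE 0.087).

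Other families of short transcripts had medians of like size. That of 36 nuclear complex I subunits was 0.13 with 0.036, 0.066 and 0.28 in replicates 1, 2 and 3, that of 78 tested mitochondrial ribosomal proteins 0.11 with 0.059, 0.054 and 0.21, and that of 82 tested cytosolic ribosomal proteins 0.085 with -0.025, -0.011 and 0.26. In the same order, estimates were above 0 for 33 of 36, 70 of 78 and 68 of 82 genes. Higher in copper in all 3 pairs were 22, 33 and 21 of them. The upward lean was thus not particular to complex IV. In each of the 3 families 0 genes were called, and replicate 3 held the largest median. The complex IV genes were not tested against these families.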

How the data were processed

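RNA-seq libraries were made from total RNA of 3 copper and 3 control samples by a directional protocol (NEBNext), per the labels. The authors deposited 1 table of raw counts per gene for 25992 genes. STAR, FastQC, edgeR and the build GRCh38 are named in the submitters' processing notes, with no role. The counting program, its use of strand, its treatment of shared reads and the annotation are not given in the sources used here, and such reads can shift counts between overlapping genes. Symbols, Entrez numbers and positions (1 was added to the starts) are those of the table. A further 5 genes had no symbol (0.000814% of counts) and were dropped, and genes of mitochondrial DNA were not analysed here.

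Counts were analysed with edgeR 4.0.16 in R 4.3.3 (filterByExpr with minimum count 10 and total 15, TMM scaling, robust quasi-likelihood test of group, Benjamini-Hochberg adjustment over all 12944 genes tested, called under 0.05, prior count 2). SEs and 95% intervals were derived from the test statistic. CPM values use TMM library sizes. Depth was 16301772 to 25079913 counts per library. Alternatives were 3 other scalings (total counts, upper quartile, RLE), DESeq2 1.42.0, all genes unfiltered, the replicate block without and with removal of the trend of each library over length and GC content (splines of 4 degrees of freedom, GENCODE 29 lengths for 99.5% of tested genes), replicates 1 and 2 alone and each library left out. The replicate numbers come from the sample titles, which name no shared day or batch. Same-numbered libraries deviated together from their group means across genes (r of 0.46, 0.40 and 0.65, minimum set at 0.1). The numbers were therefore taken to pair the samples in the blocked fits and in the differences within replicate numbers. The fit without the block, which gave the SEs and the adjusted p-values not marked as blocked, ignored this pairing. Copper replicate 1 and control replicate 2 also deviated together (0.32), as did copper replicate 2 and control replicate 1 (0.27). The difference between replicates 1 and 2 correlated at 0.15 across the groups, so the pairing mostly sets replicate 3 apart. Within groups the lowest chi-square was 5.40 per degree of freedom, so no 2 libraries agreed within counting noise as 1 library deposited in duplicate would. This says nothing of whether they are biological replicates. Upstream sequences came from RefSeq, GRCh38.p14, and 33 of 35 starts equalled those of the table.

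The members and lists were chosen with earlier results of these data known. All 40 members are named whatever their values, and of each related list the 2 genes with the smallest p; SLC25A3 was added after its values were seen. On simulated counts with 200 of 12845 genes changed 2-fold between copper and control and replicate effects as estimated, the fit without the block recovered 114 with 0 false calls and the blocked fit 172 with 8. With no replicate effect (12838 genes, 200 changed) they recovered 172 and 171, with 15 and 22 false calls. Changes smaller than 2-fold, as all complex IV estimates were, were not simulated. Each simulated replicate effect was the same in both groups. In the data copper replicate 3 stood farther apart than control replicate 3, at 41.2 and 17.6 on the first principal component. The 172 recovered with the block may therefore be too many for these data.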

Additional observations from a re-analysis of the deposited data

How the results depend on the processing

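The count of complex IV genes called was 0 under 14 of 15 alternatives and 1 (COA6) with the replicate block in replicates 1 and 2 alone; the block with all libraries changed no call on them. The count over all genes, 0, became 12 with no filter, 27 with DESeq2, 22 with the block, 187 with the block and a correction for length and GC, 111 in replicates 1 and 2 alone and 912 there with the block. Leaving out one library each gave 0 to 15 genes, 15 without copper replicate 3. Without the filter the genes differing among replicate numbers rose to 3109 and those of complex IV to 3, from 836 and 1. The median of insertion of the second core subunit, -0.16, was 0.024 in replicates 1 and 2 and 0.016 there with the block. The median of all 37 genes ranged from 0.029 to 0.16 and that of the subunits from -0.0017 to 0.18 with a library left out, the lowest of both without copper replicate 3. It was 0.063 to 0.12 for heme a synthesis, -0.31 to -0.00084 for insertion of the second core subunit, 0.11 to 0.21 for the other assembly factors, 0.046 to 0.17 for copper delivery, 0.12 to 0.20 for the first core subunit and 0.033 to 0.17 for the HIG1 pair. Scaling moved the median of all genes to at most 0.033.

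Of single genes, 306 results under other settings kept direction and call, 26 reversed, each from an estimate that was not called, and 1 passed the threshold (COA6, above). In replicates 1 and 2 alone these were COX5A (-0.046), COX5B (-0.0052), COX6A1 (-0.059), COX7A2L (-0.026), COX7B (-0.018), COX8A (-0.15), LRPPRC (0.067), COX20 (0.024), CMC2 (-0.00011), HIGD2A (-0.15). In the same libraries, blocked, they were COX5A (-0.043), COX5B (-0.0049), COX6A1 (-0.055), COX7A2L (-0.026), COX7B (-0.016), COX8A (-0.15), LRPPRC (0.065), COX20 (0.016), HIGD2A (-0.15). After the correction for length and GC (with the block) they were COX5A (-0.015), COX6A1 (-0.0083), COX8A (-0.084), LRPPRC (0.028), HIGD2A (-0.062). COX8A was at -0.0033 with the block and COX7A2L at -0.0063 with no filter. With a library left out, 203 results kept their direction and 19 reversed. The ranges of the genes concerned were -0.035 to 0.12 for COX5A, -0.0080 to 0.20 for COX5B, -0.060 to 0.15 for COX6A1, -0.030 to 0.058 for COX7A2L, -0.019 to 0.13 for COX7B, -0.23 to 0.14 for COX8A, -0.075 to 0.21 for COX19, -0.020 to 0.10 for SCO1, -0.13 to 0.081 for LRPPRC, -0.026 to 0.20 for COX14, -0.011 to 0.091 for COX18, -0.00051 to 0.15 for CMC2, -0.041 to 0.34 for COA7, -0.19 to 0.16 for HIGD2A. Depth limits COX16, COX20 and PET117, all under 100 counts per library, most. What caused these changes was not tested.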
